A study of Mus musculus with 2 samples.

Results

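The genes described here encode the enzymes that make nucleotides, serine and folate-bound one-carbon units. They were taken by symbol from a list of 39 genes and number 39 of the 23282 gene rows in the tables. The list was not chosen by a threshold on the counts. The genes fall into 9 steps, which are the supply of phosphoribosyl pyrophosphate (PRPP), the synthesis of inosine monophosphate (IMP), the branches to AMP and GMP, purine salvage, pyrimidine synthesis, the nucleotide kinases, the supply of deoxynucleotides (dNTPs), the folate cycle and serine synthesis.

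RNA-seq was performed on 1 library of Control Th17 cells and 1 library of RV-Cre Th17 cells. For both, splenic naïve CD4 T cells of *Fak* fl/fl mice, which per the study's methods were females of 6 to 8 weeks, were activated on plate-bound anti-CD3ε (10 μg/ml) with soluble anti-CD28 (5 μg/ml) and kept for 3 days in IL-6 (50 ng/ml), TGFβ1 (1 ng/ml), TNF-α (1 ng/ml), IL-1β (2 ng/ml) and blocking antibodies to IFNγ and IL-4 (5 μg/ml each). The Control cells received the empty MIEG3 retrovirus and the RV-Cre cells a retrovirus carrying Cre recombinase, which cuts out the floxed part of *Fak* (*Ptk2* in the tables, the gene of focal adhesion kinase), and GFP+ cells were sorted. The genotype field of the Control library reads WT, whereas its title names floxed cells with the control virus, and the title was followed. No library held Cre with an intact *Fak*, so the presence of Cre and the loss of *Fak* cannot be told apart. Nor can the effect of the condition be told apart from the difference between any pair of cultures, because there was 1 library for each. Each library was made from 500 ng of total RNA, and the number of animals behind it is not given in the sources used here.

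The Control library held 13799264 counted reads and the RV-Cre library 12305010. The ribosomal RNA gene *Rn45s* took 8.50% and 14.6% of them. *Ptk2* had 110 Control and 31 RV-Cre reads, a ratio of 0.318 (95% interval 0.206 to 0.477). Of the CD4 T cell markers, all 7 were detected in both libraries, while B cell markers summed to 51 and 117 reads with *Pax5* at 0 in both, and myeloid markers to 124 and 215 reads with *Adgre1* at 0 in the Control library. Th17 markers summed to 12482 Control and 5703 RV-Cre reads, and CD8 T and NK cell markers to 1202 and 1557, with *Ncr1* at 0 in the Control library and *Klrb1c* at 0 in the RV-Cre library. The part of these cells in the results below was not tested. In such bulk RNA, fewer cells of a type and less RNA per cell cannot be told apart.

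Purine rings are built step by step on PRPP and end in IMP, from which AMP and GMP are made. The pyrimidine ring is closed first and joined to PRPP afterwards, and UMP and CTP follow. Ribonucleotide reductase and thymidylate synthase turn part of these products into the building blocks of DNA, while serine hydroxymethyltransferases pass a carbon of serine to folate, which carries it to the purine ring and to thymidylate. Activated T cells are known to turn on all of these routes before they divide.

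Letters of known motifs were located in the promoters of these genes. Stretches are printed for *Rrm2*, *Paics*, *Tyms*, *Dut* and *Rrm1*, the 5 genes with the largest decreases, for *Dtymk* and *Impdh2*, whose windows hold letters of an E2F site and of an E box, and for *Ppat*, the neighbour of *Paics*. That of *Dut* holds none of the letters, and neither do the windows of *Tk1* and *Dck*, which are not printed. The gene model of *Dut* begins at chr2:125247248, before its window, so no bases upstream of that first start were searched. They run 5′ to 3′ on the strand of the gene, come from RefSeq on GRCm38.p6 and end 50 bases after the annotated start site. The capitals mark TTCCCGC or TTGGCGC, letters of E2F sites, CACGTG, the E box bound by MYC among others, and CCAAT, each on either strand. The stretches lie at chr7:102441545-102441744 (+) for *Rrm1*, chr12:24708104-24708303 (+) for *Rrm2*, chr5:30073576-30073775 (-) for *Tyms*, chr2:125247365-125247564 (+) for *Dut*, chr1:93801885-93802084 (-) for *Dtymk* and chr9:108560286-108560485 (+) for *Impdh2*. The whole windows of *Ppat* at chr5:76951529-76951828 (-) and *Paics* at chr5:76951052-76951351 (+) are given because the genes are neighbours.
Rrm1: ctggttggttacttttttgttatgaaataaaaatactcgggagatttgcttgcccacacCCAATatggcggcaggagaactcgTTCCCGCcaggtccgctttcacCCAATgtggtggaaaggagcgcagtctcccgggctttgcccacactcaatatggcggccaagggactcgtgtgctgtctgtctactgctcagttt
Rrm2: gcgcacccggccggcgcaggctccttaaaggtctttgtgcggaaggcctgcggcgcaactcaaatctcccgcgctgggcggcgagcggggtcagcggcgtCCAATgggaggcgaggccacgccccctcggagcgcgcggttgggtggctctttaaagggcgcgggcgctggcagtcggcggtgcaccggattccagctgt
Tyms: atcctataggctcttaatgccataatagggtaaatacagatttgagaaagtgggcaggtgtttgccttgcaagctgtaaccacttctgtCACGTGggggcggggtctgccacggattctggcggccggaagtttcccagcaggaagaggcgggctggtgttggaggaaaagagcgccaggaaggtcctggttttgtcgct
Dut: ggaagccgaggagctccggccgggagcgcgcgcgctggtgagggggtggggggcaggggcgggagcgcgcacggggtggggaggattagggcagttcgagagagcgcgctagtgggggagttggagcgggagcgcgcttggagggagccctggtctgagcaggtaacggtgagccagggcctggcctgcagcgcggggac
Dtymk: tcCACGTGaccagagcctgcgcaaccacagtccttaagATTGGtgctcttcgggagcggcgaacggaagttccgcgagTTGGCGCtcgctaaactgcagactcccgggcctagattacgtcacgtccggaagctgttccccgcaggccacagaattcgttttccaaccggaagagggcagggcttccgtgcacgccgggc
Impdh2: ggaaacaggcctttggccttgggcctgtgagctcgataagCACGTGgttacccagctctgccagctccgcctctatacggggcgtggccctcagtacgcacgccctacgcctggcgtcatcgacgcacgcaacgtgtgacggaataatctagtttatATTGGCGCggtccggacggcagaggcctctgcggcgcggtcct
Ppat: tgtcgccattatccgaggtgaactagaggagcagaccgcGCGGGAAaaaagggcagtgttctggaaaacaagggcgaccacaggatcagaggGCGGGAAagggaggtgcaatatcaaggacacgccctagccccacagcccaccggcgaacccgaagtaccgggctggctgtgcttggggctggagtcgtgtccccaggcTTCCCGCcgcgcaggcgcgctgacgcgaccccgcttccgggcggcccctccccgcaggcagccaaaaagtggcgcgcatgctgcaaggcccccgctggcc
Paics: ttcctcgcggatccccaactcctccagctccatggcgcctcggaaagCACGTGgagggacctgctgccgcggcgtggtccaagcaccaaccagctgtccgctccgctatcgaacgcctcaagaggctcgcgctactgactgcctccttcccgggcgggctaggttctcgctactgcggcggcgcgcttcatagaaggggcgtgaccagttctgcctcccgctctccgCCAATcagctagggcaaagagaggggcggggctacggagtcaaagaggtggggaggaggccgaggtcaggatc

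Most of the 39 genes had fewer reads in the RV-Cre library. Their summed reads were 113352 in the Control and 63132 in the RV-Cre library, that is, 0.821% and 0.513% of all counted reads. After TMM scaling, 37 of the 39 had a ratio below 1 and 2 a ratio above 1, and the median log2 ratio, RV-Cre minus Control, was -0.60. A gene was counted as lower or higher at a difference of at least 2-fold with log2(normalized reads + 1) at 4 or above in either library. All 39 genes passed that minimum, 11 were lower and 1 was higher. Across all 12112 genes past the minimum, 12.3% were lower and 14.2% higher and the median log2 ratio was -0.01, against 28.2% lower among the 39 genes. Of these 12112 genes, 6100 had a ratio below 1. These all-gene calls depended on the scaling. Of the genes past 2-fold, 53.6% were higher with TMM and 79.1% with scaling to *Gapdh*, which lifted the median of all genes by 0.42 and left 6 of the 39 genes lower. With *Gapdh* scaling, the share lower over all genes past the minimum also fell, to 6.40%.

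The 39 genes are well expressed, which sets another background. All reached a log2 value of 8 in one library or both, a minimum chosen after the values were seen. Of the 6863 genes past that minimum, 9.73% were lower and 4.62% higher, with a median of -0.09, and 3808 had a ratio below 1. The 95% interval, an exact Clopper-Pearson interval on the split of the reads that covers counting error only, lay below a ratio of 1 for 35 of the 39 genes. It did so for 38.1% of all genes past the first minimum and for 46.7% of the well expressed ones. No test was made, since 1 library per condition leaves no replicates to set a difference against.

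The nearest values to the 2-fold line were those of *Impdh2* (log2 ratio -1.02) and *Ctps2* (1.05) just inside it and of *Ctps* (-0.93) and *Phgdh* (-0.90) just outside it. The counting intervals of all 4 reached across the line, as did that of *Psph*, while those of the other 10 lower genes lay wholly below a ratio of 0.5. *Impdh2* was no longer counted as lower when *Rn45s* was left out of the library totals (-0.93), after quantile normalization (-0.92) or with *Gapdh* scaling (-0.60).

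**Figure D1:**
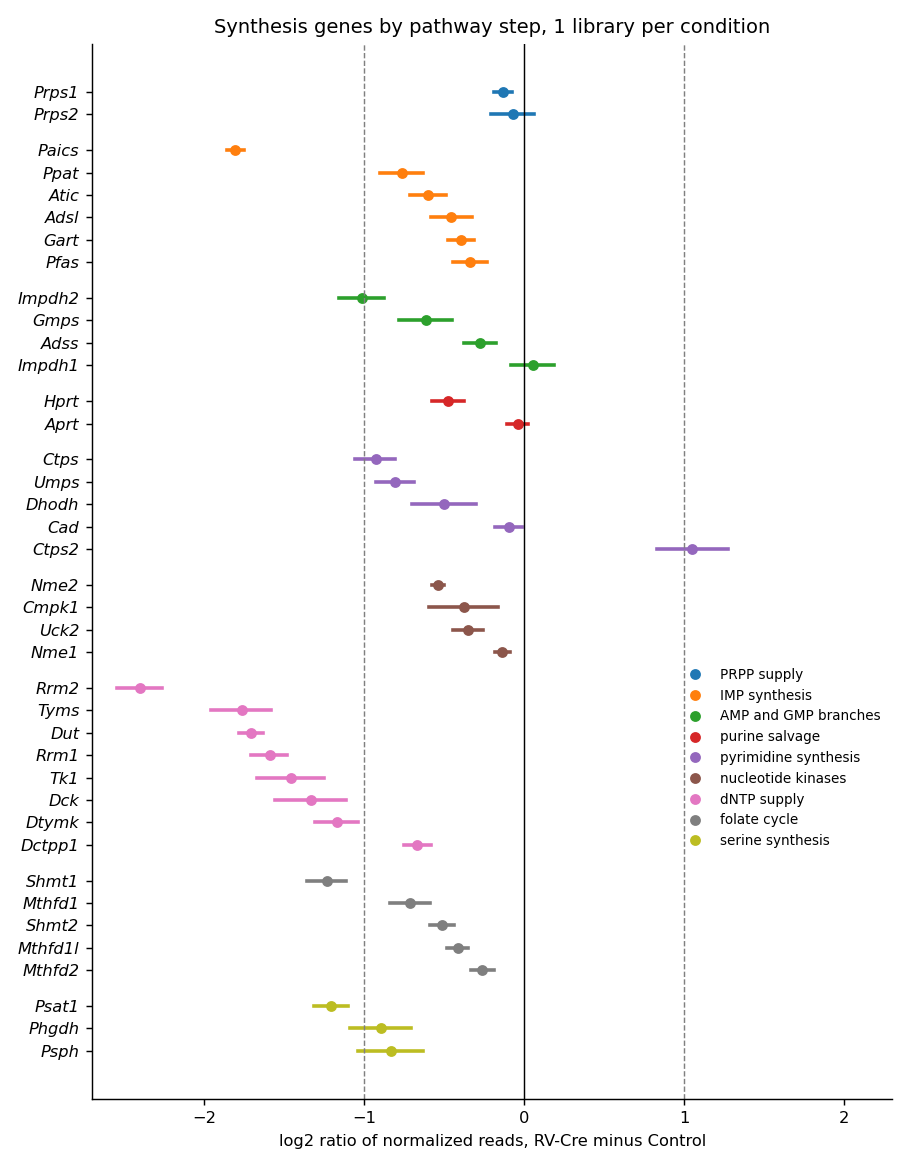
Log2 ratio of normalized reads (RV-Cre minus Control, horizontal axis) for the 39 genes, coloured by step, with 1 library per condition. Points are ratios, bars exact 95% counting intervals and dashed lines the 2-fold thresholds. The dNTP gene *Rrm2* lies farthest to the left at -2.40, followed by *Paics* of IMP synthesis at -1.80. *Ctps2* at 1.05 is the one gene past the right-hand line.

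**Figure D2:**
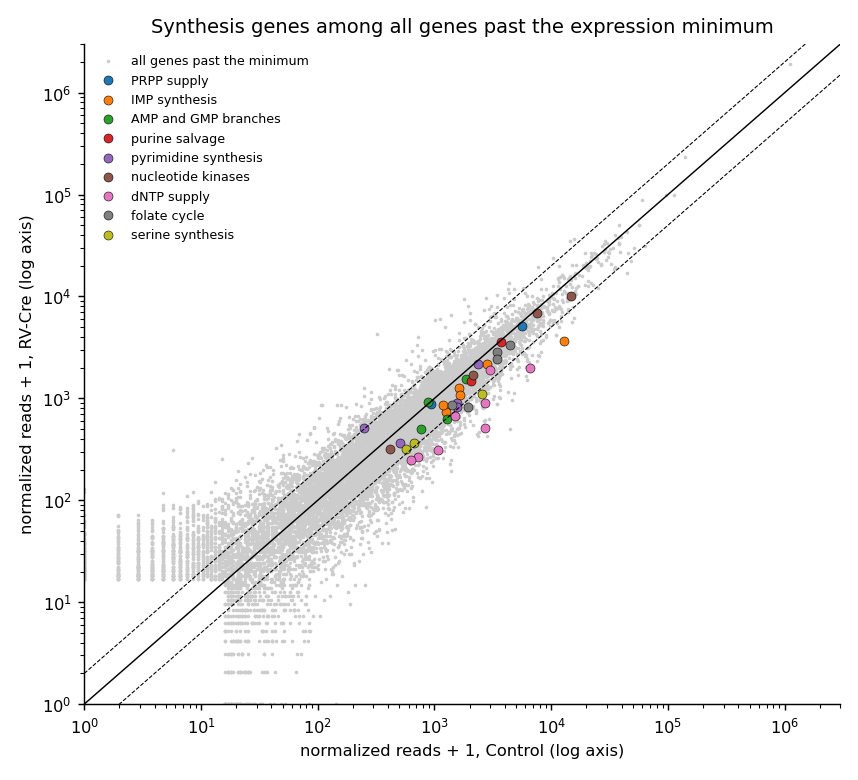
Normalized reads + 1 in the Control (horizontal, log axis) and RV-Cre library (vertical, log axis) for the 12112 genes past the expression minimum (grey) and the 39 synthesis genes (coloured by step). The solid line marks equality and the dashed lines 2-fold; 11 coloured points lie below the lower dashed line and 1 above the upper one.

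The dNTP supply genes showed the largest decreases of the 9 steps by median. Of the 8 genes, 7 were lower, 0 were higher and the median log2 ratio was -1.52. Their summed reads were 19987 in the Control and 6381 in the RV-Cre library, at a ratio of 0.360 (0.350 to 0.371). *Rrm2*, the small subunit of ribonucleotide reductase that carries its tyrosyl radical, had 2863 Control and 480 RV-Cre reads and the lowest ratio of all 39 genes, 0.189 (0.171 to 0.208). Its large subunit *Rrm1*, which holds the catalytic site, had 2857 Control and 840 RV-Cre reads, a ratio of 0.332 (0.307 to 0.358). Both subunits were thus lower, the small one by more.

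The thymidylate genes followed. *Tyms*, which methylates dUMP to dTMP, had 1129 Control and 294 RV-Cre reads (ratio 0.294, 0.258 to 0.334). *Dut*, the dUTPase that makes dUMP and keeps uracil out of DNA, had 6917 and 1877 reads (0.306, 0.291 to 0.322). *Dtymk*, which phosphorylates dTMP, had 1593 and 626 reads (0.443, 0.404 to 0.487). All of these enzymes act on the path to dTTP, and all were lower. In deoxynucleoside salvage, thymidine kinase *Tk1* had 766 Control and 247 RV-Cre reads (0.364, 0.314 to 0.421), and *Tk1* overlaps *Afmid* in the annotation. The kinase *Dck*, which acts on deoxycytidine, had 668 and 235 reads (0.397, 0.341 to 0.461). The exception among the 8 was *Dctpp1*, a pyrophosphatase that clears dCTP and its modified forms, with 3194 and 1782 reads and a log2 ratio of -0.67.

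Some dNTP genes outside the 39 differed from them in direction. *Samhd1*, the phosphohydrolase that breaks dNTPs down, had 4177 Control and 9019 RV-Cre reads (2.44, 2.35 to 2.53) and was higher. *Dguok*, the mitochondrial deoxyguanosine kinase, had 354 and 639 reads (2.04, 1.79 to 2.33) and was also higher. Mitochondrial thymidine kinase *Tk2* had 192 and 168 reads (0.987, 0.798 to 1.22), and the p53-controlled reductase subunit *Rrm2b* had 108 and 128 reads (1.34, 1.03 to 1.74). Neither reached 2-fold in either direction. Other dNTP genes of the wider list had ratios below 1, like the 8. *Dctd* had 304 and 149 reads (0.553, 0.452 to 0.675) and *Nudt1* 1436 and 957 (0.752, 0.692 to 0.817). *Tk2*, *Rrm2b*, *Dctd* and *Nudt1* were picked after their values were seen.

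**Figure D3:**
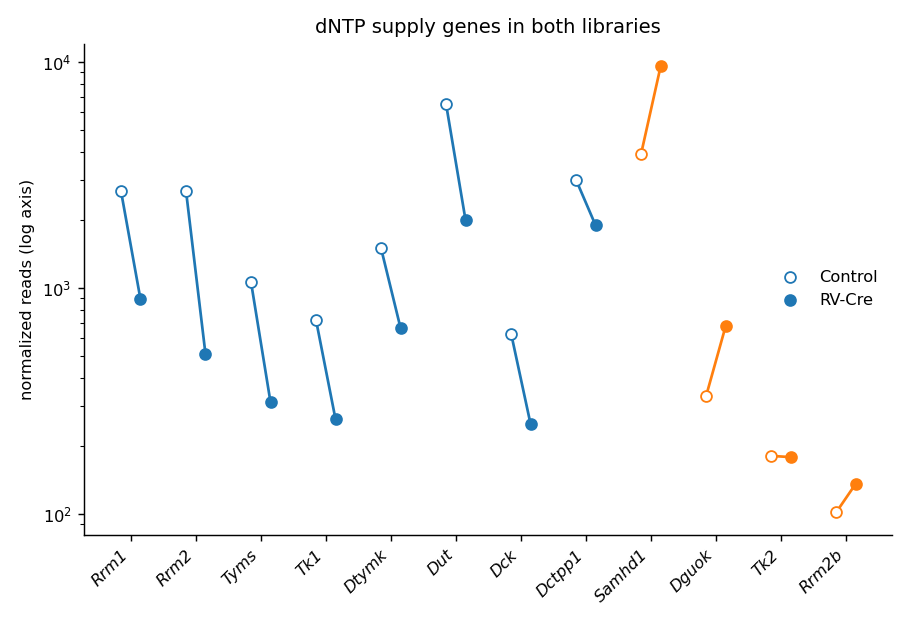
Normalized reads (vertical, log axis) of 12 dNTP genes in the Control library (open circles) and the RV-Cre library (filled circles), 1 library each. Blue marks the 8 dNTP supply genes, whose lines all descend. Orange marks *Samhd1*, *Dguok*, *Tk2* and *Rrm2b*, of which *Samhd1* and *Dguok* were at least 2-fold higher. *Dctd* and *Nudt1*, both with ratios below 1, are not drawn.

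Of the 6 IMP synthesis genes, 1 was lower and the 5 others lay between a log2 ratio of -0.76 and -0.34. *Paics*, a bifunctional enzyme of the middle of the pathway, had 13561 Control and 3440 RV-Cre reads, a ratio of 0.286 (0.276 to 0.297). It was second to *Rrm2* in the size of its decrease. *Ppat*, the amidotransferase that commits PRPP to purines, had 1321 and 689 reads and a log2 ratio of -0.76. *Atic*, which carries out the last steps to IMP, had 1740 and 1017 reads (-0.60). The trifunctional *Gart*, with 3015 and 2032 reads (-0.39), and *Pfas*, with 1713 and 1201 reads (-0.34), both turned to a ratio above 1 when scaled to *Gapdh*. *Adsl*, the lyase shared by the IMP and AMP routes, had 1252 and 809 reads (ratio 0.729, 0.667 to 0.797). The decrease was thus uneven along the chain of reactions, with *Paics* apart from the others.

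*Paics* and *Ppat* lie head to head on chromosome 5. Their annotated start sites are 276 bases apart on opposite strands and the gene models overlap, so reads near the start could be assigned to either. QuantSeq reads come from the 3′ ends. The printed windows share 0 bases. That of *Paics* holds a CACGTG and a CCAAT, and that of *Ppat* holds TTCCCGC or its reverse complement at 3 positions. *Paics* took 91.1% (90.7 to 91.6) of the reads of the pair in the Control library and 83.3% (82.1 to 84.4) in the RV-Cre library, a share that needs no scaling between libraries.

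PRPP supply differed little. *Prps1*, a PRPP synthetase that like *Prps2* lies on the X chromosome, had 5929 Control and 4792 RV-Cre reads (ratio 0.912, 0.878 to 0.948). Its isoenzyme *Prps2* had 993 and 837 reads (0.951, 0.867 to 1.04). Both ratios went above 1 with *Gapdh* scaling, and that of *Prps2* also with quantile normalization and with library totals without *Rn45s*. The share of *Prps2* in the pair was 14.3% (13.5 to 15.2) and 14.9% (13.9 to 15.8), and these intervals overlap.

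In the branches from IMP, 1 of 4 genes was lower. *Impdh2*, the dehydrogenase known for its induction in dividing lymphocytes and the target of mycophenolate, had 1345 Control and 589 RV-Cre reads (0.494, 0.448 to 0.545). *Impdh1*, which catalyses the same reaction, had 935 and 860 reads (1.04, 0.945 to 1.14), an interval that includes 1. *Impdh2* therefore made up 59.0% (56.9 to 61.0) of the reads of the pair in the Control library and 40.6% (38.1 to 43.2) in the RV-Cre library. *Gmps*, the next enzyme towards GMP, had 815 and 472 reads (log2 ratio -0.61), and *Adss* on the AMP side had 1987 and 1453 reads (-0.28, above 0 with *Gapdh* scaling). In purine salvage, *Hprt*, which returns hypoxanthine and guanine to nucleotides, had 2193 and 1398 reads (-0.47). *Aprt*, which does so for adenine, had 3912 and 3368 reads and a ratio whose interval includes 1 (0.972, 0.928 to 1.02). Its ratio lay above 1 with *Gapdh* scaling, with quantile normalization and with library totals without *Rn45s*.

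The 5 pyrimidine genes showed 0 lower and 1 higher gene. *Cad*, the trifunctional protein that opens the pathway, had 2491 Control and 2066 RV-Cre reads (0.936, 0.882 to 0.993), and its ratio was above 1 with quantile normalization or *Gapdh* scaling. *Dhodh*, the mitochondrial dehydrogenase that leflunomide inhibits, had 542 and 339 reads (log2 ratio -0.50). *Umps*, which finishes UMP, had 1669 and 846 reads (ratio 0.572, 0.526 to 0.622). The decrease was thus larger at the end of the route to UMP than at its start.

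The CTP synthetases had ratios on opposite sides of 1. *Ctps* had 1657 Control and 771 RV-Cre reads (0.525, 0.481 to 0.572), short of 2-fold. *Ctps2* had 263 and 482 reads (2.07, 1.78 to 2.41) and was the 1 higher gene of the 39. Its share of the pair was 13.7% (12.2 to 15.3) in the Control library and 38.5% (35.8 to 41.2) in the RV-Cre library. The sum of the pair was 1920 and 1253 reads. The gene model of *Ctps2* on the X chromosome overlaps *Gm19107* and *S100g*, and since no source says whether strand was used in counting, reads of overlapping genes may be included. Of the 4 nucleotide kinases, 0 were lower or higher. *Nme2*, a nucleoside diphosphate kinase and with 15661 and 9550 reads the gene with most reads of the 39, had a log2 ratio of -0.54. Its paralog *Nme1* had 8058 and 6491 reads (-0.14). Reads may have been split between these similar genes. *Uck2*, a uridine and cytidine kinase, had 2285 and 1590 reads (-0.35), and *Cmpk1*, which acts on UMP and CMP, had 437 and 298 (-0.38). With *Gapdh* scaling the ratios of *Nme1*, *Uck2* and *Cmpk1* lay above 1, and that of *Nme1* also with quantile normalization.

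**Figure D4:**
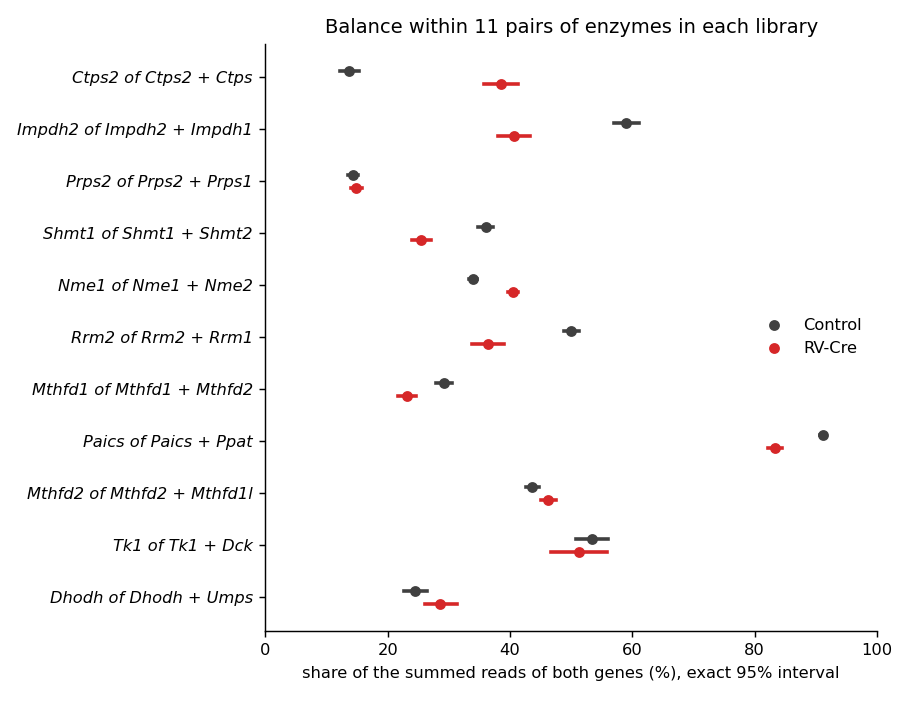
Share of the first enzyme in the summed reads of a pair (horizontal axis, percent) in the Control (dark) and RV-Cre (red) library, with exact 95% binomial intervals, 1 library each. The largest shift is that of *Ctps2*, from 13.7% to 38.5%, and the intervals overlap in 3 of the 11 pairs, those of *Prps2*, *Tk1* and *Dhodh*.

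In serine synthesis, 1 of 3 genes was lower and the median log2 ratio was -0.90. *Phgdh*, the dehydrogenase that draws 3-phosphoglycerate from glycolysis, had 713 Control and 339 RV-Cre reads (ratio 0.537, 0.470 to 0.611). The aminotransferase *Psat1* had 2684 and 1031 reads (0.433, 0.403 to 0.466) and was lower. The phosphatase *Psph*, which overlaps *Cct6a*, had 606 and 301 reads (0.561, 0.487 to 0.645). The interval of *Psat1* lay below those of the other two genes, which overlap each other.

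In the folate cycle, 1 of 5 genes was lower and the median was -0.51. *Shmt1*, the cytosolic serine hydroxymethyltransferase, had 2062 Control and 776 RV-Cre reads (0.425, 0.391 to 0.461). The mitochondrial *Shmt2* had 3664 and 2274 reads (0.700, 0.664 to 0.738), and the share of *Shmt1* in the pair was 36.0% (34.8 to 37.3) and 25.4% (23.9 to 27.0). *Mthfd1*, the cytosolic trifunctional enzyme, had 1504 and 812 reads (log2 ratio -0.71). The mitochondrial *Mthfd2* had 3650 and 2697 reads (-0.26) and *Mthfd1l*, which releases formate, 4708 and 3131 (-0.41). Each cytosolic gene thus had a lower ratio than its mitochondrial counterpart, and *Mthfd2* and *Mthfd1l* had ratios above 1 with *Gapdh* scaling. *Mthfd1* took 29.2% (27.9 to 30.4) of the reads of the pair with *Mthfd2* in the Control library and 23.1% (21.8 to 24.6) in the RV-Cre library.

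Outside dNTP supply the decreases were smaller. Of the 31 other genes, 4 were lower (*Paics*, *Shmt1*, *Psat1* and *Impdh2*) and 1 was higher, the median log2 ratio was -0.47 and 29 had a ratio below 1. The share lower was 12.9%, close to the 12.3% of all genes past the minimum and above the 9.73% of the well expressed ones. A ratio below 1 was found for 6100 of all 12112 genes and for 3808 of the 6863 well expressed ones. With *Gapdh* scaling, 1 of the 31 was lower, 17 had a ratio below 1 and the median was -0.057, whereas 5 of the 8 dNTP genes stayed lower with a median of -1.11. With library totals, DESeq2 size factors, library totals without *Rn45s* and quantile normalization, the median of the 31 lay between -0.49 and -0.37. The first 2 of these left 4 of the 31 lower, where 12.5% and 12.6% of all genes past the minimum were lower. The last 2 left 3 of the 31 lower, where 10.5% and 13.3% of all genes were lower. The ratios outside dNTP supply thus depended on the scaling. *Gapdh* scaling divides each library by a single factor, so it shifts all genes alike by construction. The median shift was 0.42 for the 39 genes and 0.42 for all genes. With *Gapdh* scaling, 6.40% of all genes past the minimum were lower. The count of genes past 2-fold rested largely on the dNTP genes.

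A wider list of 79 genes of the same pathways, with transporters and catabolic enzymes, held 62 past the minimum. Of these, 12 were lower and 6 higher, 42 had a ratio below 1 and the median log2 ratio was -0.40, or 0.021 with *Gapdh* scaling, which shifted the median of all genes by 0.42. The share lower was 19.4%. Of all genes past the minimum, 12.3% were lower and 14.2% higher. With the minimum asked of both libraries, 9 were lower and 5 higher, a setting for which no share over all genes was computed. Among the lower genes were kinases of nucleotides, with *Nme4* at 418 Control and 100 RV-Cre reads (0.270, 0.215 to 0.337), *Ak4* at 384 and 89 (0.262, 0.205 to 0.330) and *Nme6* at 228 and 53 (0.262, 0.191 to 0.355). The nucleoside transporter *Slc29a1* had 2173 and 923 reads (0.479, 0.443 to 0.518), and the glutamine transporter *Slc38a1* 4834 and 2075 (0.484, 0.460 to 0.510). Both transporters carry substrates of these routes across the cell membrane.

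In folate and methyl metabolism, *Fpgs*, which retains folates in the cell by adding glutamates, had 786 Control and 273 RV-Cre reads (0.392, 0.340 to 0.450), and *Ahcy*, which clears S-adenosylhomocysteine, had 1157 and 405 (0.395, 0.352 to 0.443). *Ggh*, which removes the glutamates again, had 39 and 72 reads (2.08, 1.39 to 3.16). The enzymes that add and remove folate glutamates thus differed in opposite directions. Adenosine deaminase *Ada* had 210 and 66 reads (0.355, 0.265 to 0.470). The serine-consuming enzymes *Cbs* (51 and 14 reads) and *Sds* (35 and 9 reads) were lower from few reads, and uridine phosphorylase *Upp1* had 22 and 0 reads, at least 6.50-fold lower when the 0 is set at the 3 reads it allows and the 22 is taken as exact, while with counting error in both libraries the 95% interval of its ratio reached up to 0.206. Besides *Samhd1*, *Dguok* and *Ggh*, the higher genes were the mitochondrial kinase *Ak3* with 211 and 392 reads (2.10, 1.77 to 2.49), guanine deaminase *Gda* with 10 and 39 (4.40, 2.16 to 9.89) and AMP deaminase *Ampd3* with 21 and 39 (2.10, 1.20 to 3.75). The nearest genes short of 2-fold were *Xdh* (28 and 12 reads) and *Ampd2* (636 and 287 reads) on the lower side and *Nme7* (986 and 1552 reads) and *Slc25a36* (52 and 68 reads) on the higher side.

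Lists of neighbouring processes were set beside the 39 genes. Of 38 DNA replication genes, 17 were lower, 0 were higher and the median log2 ratio was -0.88, from *Fen1* (2466 and 424 reads, -2.36) and *Cdc45* (792 and 155, -2.17) to *Gins4* (-0.35) and *Rfc2* (-0.11). That median lies between those of the dNTP genes, -1.52, and of the 31 others, -0.47. Of 23 ribosome biogenesis genes, 1 was lower and the median was -0.38, from *Ncl* (68014 and 29596 reads, -1.03) and *Npm1* (-0.86) to *Bop1* (0.22) and *Polr1b* (0.34). Of 21 genes of the ATF4 response and tRNA synthetases past the minimum, 3 were lower and the median was -0.23. *Sesn2* had 23 and 0 reads, at least 6.79-fold lower against 3 reads with the 23 taken as exact and with a 95% interval of the ratio up to 0.196. *Asns*, the asparagine synthetase, had 188 and 44 (-1.90), and *Iars* was the other lower gene (-1.05), while *Slc7a11* (0.64) and *Ddit3* (0.78) lay highest. The share lower was 44.7% for DNA replication, 4.35% for ribosome biogenesis and 14.3% for the ATF4 list. Of all genes past the minimum, 12.3% were lower, close to the share of the ATF4 list. No list was tested against another.

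Genes of cell division and of the resting state differed in opposite directions. All 11 G2/M markers were lower, with a median log2 ratio of -2.23 and sums of 20683 Control and 5082 RV-Cre reads. All 9 naïve T cell markers had a ratio above 1 and 5 were higher, with a median of 1.18 and sums of 30383 and 52864 reads. Over all genes past the minimum, 12.3% were lower and 14.2% higher. The part of dividing or naïve-like cells in the decreases of the synthesis genes was not tested.

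**Figure D5:**
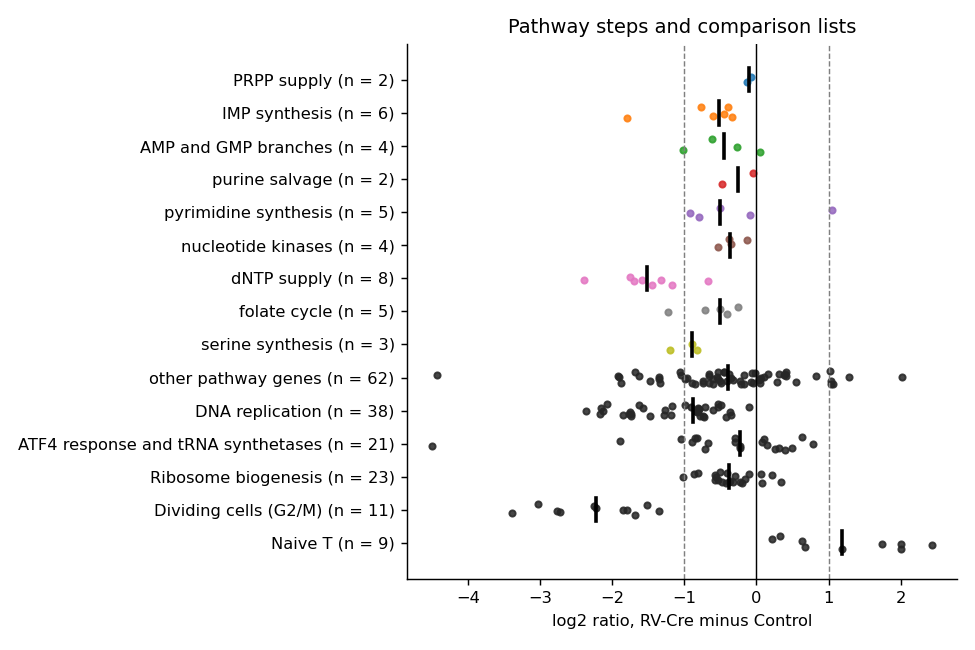
Log2 ratios (RV-Cre minus Control, horizontal axis) of the genes past the minimum in each of the 9 steps (coloured) and in other lists (dark), with black bars for medians and dashed lines at 2-fold, 1 library per condition. The dNTP step has a median of -1.52, between DNA replication at -0.88 and the G2/M markers at -2.23; points near -4.4 had 0 RV-Cre reads, so that their place depends on the 1 added to each count.

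Transcription factors known to act on these genes were also read. *Myc* had 1678 Control and 315 RV-Cre reads (0.212, 0.187 to 0.239), and *Mycn* had 1 and 0. *E2f3* had 464 and 188 reads (0.457, 0.384 to 0.543), while *E2f1* with 1214 and 646 (0.600, 0.545 to 0.661) and *E2f2* with 1487 and 848 (0.644, 0.591 to 0.701) stayed within 2-fold. *Atf4*, whose protein drives the serine genes and is controlled mainly in translation, had 6203 and 6597 reads (1.20, 1.16 to 1.24). *Myc* and *E2f3* were thus at least 2-fold lower, and the intervals of *E2f1* and *E2f2* also lay below 1. The reads of *Atf4* do not measure its protein. The part of any of these factors in the decreases was not tested.

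The promoter letters were counted in windows of 300 bases, 250 before and 50 after the start site, which RefSeq gives for 37 of the 39 genes (not *Dhodh* and *Pfas*). TTCCCGC or TTGGCGC stood in the windows of 10 of 37 genes (27.0%), in 6.85% of all 32544 promoters and in 14.1% of the 9129 genes past the minimum with a window. Here and below, the synthesis genes and the 9129 genes were counted by gene, over all windows of a gene. The 32544 promoters were counted by window, so only the share of the 9129 genes is a like measure. The 10 were *Rrm1*, *Dtymk*, *Ppat*, *Impdh2*, *Adss*, *Prps1*, *Prps2*, *Mthfd1*, *Shmt1* and *Phgdh*. Their median log2 ratio was -0.83 with 4 lower, against -0.54 with 7 lower in the 27 without. Over all genes, the medians were -0.19 with these letters and 0.04 without, and 16.3% and 10.9% were lower.

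CACGTG stood in the windows of 6 of 37 genes (16.2%), in 7.17% of all promoters and in 11.9% of the genes past the minimum with a window. They were *Paics*, *Tyms*, *Dtymk*, *Impdh2*, *Atic* and *Nme1*, of which the first 4 were lower, and their median log2 ratio was -1.09 against -0.54 in the 31 without. Over all genes, 12.3% of those with the letters and 11.6% of those without were lower. CCAAT stood in 17 of 37 (45.9%) in 37.4% of all promoters and in 43.3% of the genes past the minimum with a window, which is close to the share of the synthesis genes. *Rrm2*, with the largest decrease, had neither set of E2F letters nor CACGTG in its window, and in *Impdh2* the CCAAT, on the other strand, overlaps TTGGCGC. These are matches of letters in the windows given and describe no binding. For some genes, among them *Dut*, *Gmps* and *Mthfd2*, the window lies inside the gene model. Bases upstream of the first annotated start of these genes were not searched.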

How the data were processed

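RNA was measured with a QuantSeq 3′ kit in 1 Control and 1 RV-Cre library, grouped by title. The authors deposited raw counts of reads per gene symbol, with no normalization. The submitters' notes name mm10, bcl2fastq 2.20.0.422, Bowtie2 and bedtools without their roles, and the counting method and strand setting are not given in the sources used here. Reads were counted on 23282 rows, of which 79 share a symbol with another row and were left out of gene lists.

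The depth was 13799264 and 12305010 reads. Counts were scaled by TMM (edgeR 4.0.16, R 4.3.3) and compared as log2(normalized count + 1). The minimum was a log2 value of 4 (15 normalized reads) in at least 1 library, and changed meant at least 2-fold. No test was run. Exact Clopper-Pearson 95% intervals (scipy 1.17.1) on read splits cover counting error only, as does the ceiling of 3 reads set for a 0, since the counts carry no molecular identifiers. The scripts were tested on simulated data. QuantSeq counts do not grow with transcript length, and ratios and shares were compared between libraries, not levels between genes.

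The members and lists were chosen with earlier results of these data known. Named were all 39 members, the changed genes and the next most extreme of the wider pathway list (some of which are not reported here), the most extreme genes of the comparison lists, *Ptk2*, regulators known from textbooks and scaling genes. Promoters and gene overlaps came from RefSeq (GRCm38.p6), which matched all 39 members, 15 of which overlap another annotated gene. Alternatives were library totals with and without *Rn45s*, quantile normalization (limma 3.58.1), centring on the median, size factors of DESeq2 1.42.0, *Gapdh* scaling, pseudocounts of 0.1 and 10, other minimums, folds of 1.5 and 3 and a 99% interval. A log2 minimum of 8 and the split of dNTP genes from the others by scaling were added after the data were seen.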

Additional observations from a re-analysis of the deposited data

How the results depend on the processing

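No paired analysis was possible because there was a single library on each side, and for the same reason no replicate could be left out. With *Gapdh* scaling, which rests on 956 and 634 reads of 1 gene, 6 of the 39 genes were at least 2-fold lower and their median log2 ratio was -0.18, and 7 of the wider pathway genes were lower with a median of 0.021. The share lower over all genes past the minimum was then 6.40%. With no expression minimum, 19 wider pathway genes were lower. At a fold of 1.5, 20 of the 39 and 23 of the wider genes were lower. At a fold of 3, 5 of the 39 were lower and 0 higher, and 6 of the wider genes were lower and 1 higher. No share over all genes was computed without the minimum or at folds of 1.5 and 3, so these counts have no background beside them. Under the other alternatives run, 10 to 11 of the 39 were lower and 1 was higher. The sign of the log2 ratio changed for 12 of the 39 genes with *Gapdh* scaling, for 4 with quantile normalization and for 2 with library totals without *Rn45s*, and for 0 under library totals, DESeq2 size factors, median centring and both pseudocounts. *Gapdh* scaling shifted the median of all genes by 0.42, and the cause of the difference in *Gapdh* was not tested. The counting intervals of *Prps2*, *Impdh1* and *Aprt* included a ratio of 1.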
